A study of Mus musculus with 2 samples.

Results

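The respiratory chain was described here through the genes that encode its subunits in 2 genomes. Members were all protein-coding genes whose symbol begins with Nduf, Uqcr, Cox4 to Cox8, Atp5, mt-Nd, mt-Co, mt-Cytb or mt-Atp, together with Sdha, Sdhb, Sdhc and Sdhd. The rule found 107 genes in the annotation, and 106 of them, out of 42462 annotated genes, were in the expression tables. Of the 106, 13 lie in the mitochondrial genome and 93 in the nucleus. The nuclear members comprised 75 subunits in general use, 8 forms of subunits known from particular tissues, 8 complex I assembly factors with an Ndufaf symbol, Atp5s and Cox7a2l. The last 2 are not grouped with the subunits: Atp5s encodes a coupling factor and Cox7a2l a factor of respiratory supercomplexes. The rule read symbols only and used no measured value, although it was set with earlier results of these data known.

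The respiratory chain passes electrons from NADH and succinate through complexes I and II, ubiquinone, complex III, cytochrome c and complex IV to oxygen. Complexes I, III and IV pump protons across the inner mitochondrial membrane, and complex V, the ATP synthase, uses the gradient to make ATP. Complex II is encoded by nuclear genes alone, whereas the other complexes join subunits translated inside mitochondria to subunits imported from the cytosol. Mitochondrial DNA is read as long transcripts that are cut at the tRNAs between genes. Neurons depend heavily on this pathway for the cost of ion pumping.

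The samples were 2 total RNA libraries from the neural tube of B6NCrl mice at embryonic day 15.5. The labels name no treatment and no altered allele. Replicate 1 pooled 78 embryos and replicate 2 pooled 62, of both sexes, so a value belongs to a pool of animals and of all cell types in the dissected tissue. From each pool 10 ng of RNA longer than 200 nucleotides was used. Both libraries form 1 group, so no conditions could be compared and no test was made. Levels are in TPM, transcript abundance corrected for length and scaled to 1 common total per library, given as mean ± SD over the libraries (n = 2) or as the values of replicates 1 and 2 in that order.

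The library totals were 35430338 and 42321669 expected counts. All 7 neuron markers were detected in both libraries, with summed levels of 4203 and 4986 TPM, and all 4 neural progenitor markers, with 1971 and 2350 TPM. Replicate 1 stood apart in markers of other tissues. Its 7 thymus and T cell markers summed to 315 TPM against 0.46 TPM in replicate 2, and its 5 epithelial markers to 619 TPM against 6.67 TPM. In such bulk samples, fewer cells of a type and less RNA per cell cannot be told apart. Levels of single members are therefore given for both libraries as far as possible, and the value of replicate 2 is the value without replicate 1.

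Nearly the whole chain was expressed. At 1 TPM or more in both libraries, 104 of the 106 members were detected, beside 63.4% of all protein-coding genes. The exceptions were Cox7b2 and Cox8c, forms of complex IV subunits known from testis. Cox7b2 was at 0.61 and 0.68 TPM, from 6 and 8 expected counts. Cox8c had no count in either library, where 3 counts would correspond to 0.359 and 0.300 TPM. The members together held 6.90% and 6.96% of all TPM. The median of the 75 nuclear subunits in general use stood at the 98.0 percentile of detected protein-coding genes.

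**Figure D1:**
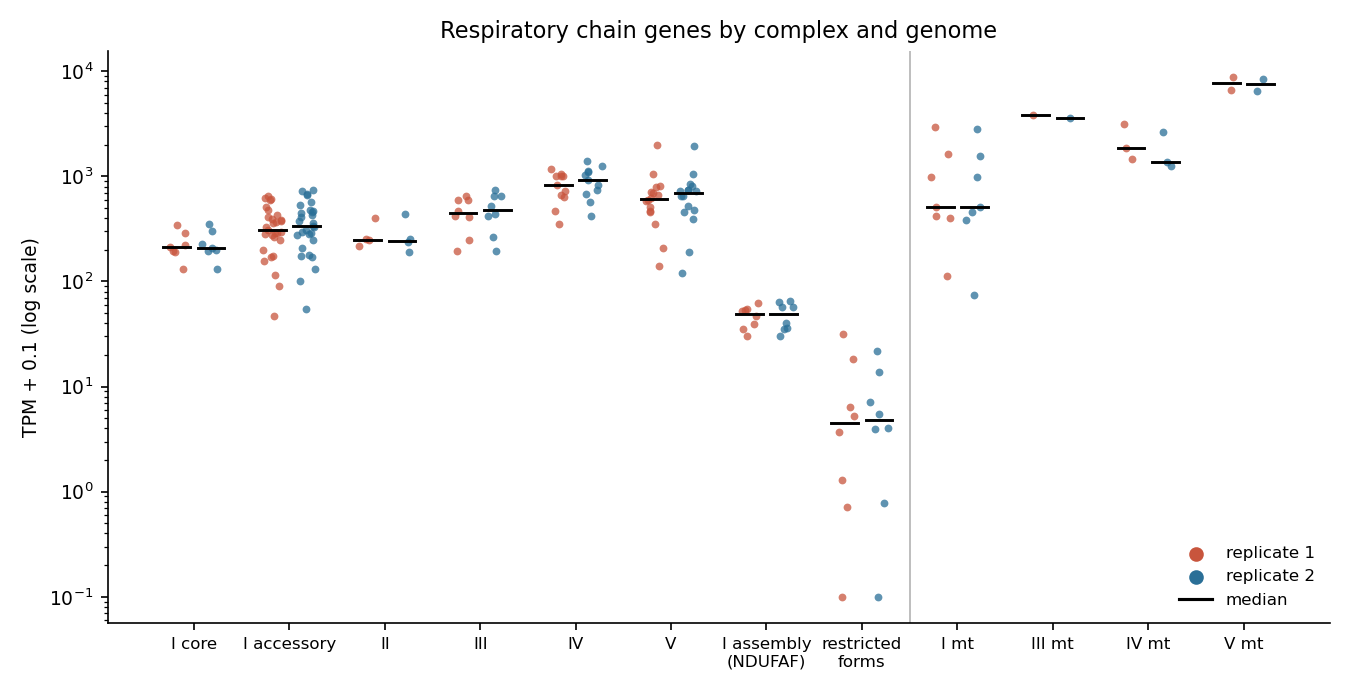
Level of each member (TPM + 0.1, log scale) by complex and genome, with 1 point a gene, orange for replicate 1 and blue for replicate 2, and black lines for medians; Atp5s and Cox7a2l are not drawn. Nuclear subunits sit mostly between 100 and 1000 TPM, restricted forms below 50 TPM and mitochondrial genes mostly higher.

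Nuclear subunits differed in level by complex, with complex IV highest and complex II lowest. The median was 883 ± 67.2 TPM over 11 subunits of complex IV and 647 ± 58.0 TPM over 16 subunits of complex V. It was 464 ± 26.4 TPM over 8 subunits of complex III, 297 ± 9.51 TPM over 36 of complex I (291 and 304 TPM) and 247 ± 4.67 TPM over 4 of complex II (250.1 and 244 TPM). The order was the same in both libraries, and no 2 neighbours in it overlapped between libraries: complex IV had medians of 835 and 930 TPM, complex V 606 and 688 TPM, and complex III 445 and 483 TPM. Subunits of 1 complex nonetheless spread widely, in complex V from 131 ± 13.9 TPM (Atp5g2) to 1962 ± 39.9 TPM (Atp5b), and over 13.5-fold in complex I, 3.57-fold in complex III, 3.36-fold in complex IV and 2.06-fold in complex II. The spans of complexes I and V were narrower once the reads of pseudogene copies, described below, were added. Complex I then ran from 96.0 to 694 TPM, against 50.6 to 684 TPM as listed, and complex V from 274 to 1962 TPM.

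In complex I, which oxidises NADH, the 7 nuclear core subunits that carry the electron path had a median of 212 ± 3.61 TPM, and the 29 accessory subunits around them 323 ± 16.5 TPM. Among the core subunits, Ndufv2 (341 and 351 TPM), Ndufs7 (289.98 and 302 TPM) and Ndufv1 (214 and 228 TPM) were highest. Ndufs1, the largest core subunit, was lowest at 132 and 131 TPM. Of the accessory subunits, Ndufc1 reached 645 and 723 TPM, Ndufa1 609.9 and 733 TPM, and Ndufab1, the acyl carrier protein of mitochondria, 625 and 666 TPM. Ndufb4 was lowest at 46.8 and 54.5 TPM, a value that the copy described below changes. The 8 Ndufaf factors, which help to build the complex and leave it, formed a separate and lower layer, with a median of 49.0 ± 0.52 TPM. They ran from Ndufaf7, a methyltransferase, at 29.8 and 30.4 TPM to Ndufaf2 (54.9 and 64.4 TPM), Ndufaf4 (53.7 and 57.0 TPM) and Ndufaf3 (61.9 and 64.3 TPM). No assembly factor reached the level of a core subunit.

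Complex II links the citric acid cycle to the chain and had the narrowest range. Its iron-sulfur subunit gene Sdhb was at 405 and 434 TPM. The membrane anchors Sdhc (255 and 252 TPM) and Sdhd (245 and 235 TPM) lay close to each other. Sdha, which binds the flavin, was lowest at 218 and 189 TPM. In complex III, which hands electrons from ubiquinol to cytochrome c, the small subunits Uqcrq (653 and 745 TPM), Uqcr11 (600.4 and 647 TPM) and Uqcr10 (594 and 649.9 TPM) were highest, and the core subunit Uqcrc2 was lowest at 197 and 195 TPM.

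Complex IV is cytochrome c oxidase, which reduces oxygen to water. Cox6b1 reached 1187 and 1399.7 TPM. Ndufa4, first described in complex I and now counted with complex IV, reached 1062 and 1264 TPM, and Cox6a1 1005 and 1113 TPM. Cox7b was lowest at 353 and 417 TPM. All 11 subunits were higher in replicate 2 than in replicate 1. So were 60 of the 75 nuclear subunits in general use, and 6484 of 14591 protein-coding genes at 1 TPM or more in either library.

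In complex V, the catalytic beta subunit gene Atp5b was the highest nuclear member, at 1989.8 and 1933 TPM. It stood 2.57 ± 0.13-fold above the alpha subunit gene Atp5a1 (805 and 726 TPM), although the enzyme carries both in equal number. Part of the Atp5b level, 22.2 ± 0.61%, lay on a noncoding transcript of 478 bases. Protein-coding transcripts held 73.6 ± 0.48% of it, against 95.1 ± 1.03% for Atp5a1. The c subunit forms the rotating ring, and its identical mature protein is encoded by a set of 3 genes. Atp5g3 (1046 and 1063 TPM) supplied 55.1 ± 0.08% of their summed TPM, Atp5g1 (709 and 747 TPM) 38.04 ± 0.89%, and Atp5g2 (141 and 121 TPM) 6.84 ± 0.81%. Atp5g2 was also the lowest subunit of the complex, and Atp5h, of the peripheral stalk, came after Atp5b and Atp5g3 with 784 and 844 TPM. Atp5s was at 16.2 and 17.2 TPM and Cox7a2l at 161 and 163 TPM.

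The 13 mitochondrial genes carried nearly as much TPM as the 93 nuclear ones. They summed to 32752 and 30567 TPM, against 36205 and 39058 TPM for the nuclear members, which put their share of the members' TPM at 47.5% and 43.9% (45.7 ± 2.54%). In genome order, mt-Nd1 was at 2919 and 2811 TPM, mt-Nd2 at 995 and 982 TPM, mt-Co1 at 3119 and 2624 TPM and mt-Co2 at 1471 and 1375 TPM. The neighbours mt-Atp8 (6625 and 6550.3 TPM) and mt-Atp6 (8859 and 8419.5 TPM) were the highest of all. They overlap by 43 bases, and a read lying there fits both. Next came mt-Co3 at 1871 and 1257 TPM, mt-Nd3 at 405 and 508 TPM, mt-Nd4l at 113 and 73.8 TPM and mt-Nd4 at 1637 and 1567 TPM. The last genes were mt-Nd5 at 420.3 and 386 TPM, mt-Nd6 at 508 and 453 TPM and mt-Cytb at 3811 and 3561 TPM. mt-Nd6 is the only one of the 13 on the other strand. It overlaps the end of mt-Nd5 by 14 bases, and the use of strand in counting is unknown here. The shortest gene, mt-Atp8, has 204 bases, of which the tables count 105 as effective length, so its TPM rests on that correction. Its rank was second both by TPM and by reads per kilobase of full length.

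Set beside the nuclear subunits of the same complex, the mitochondrial median was 1.71 ± 0.05-fold higher in complex I, 1.86 ± 0.54-fold in complex IV, 7.97 ± 0.83-fold in complex III, where mt-Cytb stands alone, and 11.8 ± 1.34-fold in complex V. By mean level, the mitochondrial gene of complex III, all 3 of complex IV and both of complex V exceeded every nuclear subunit of the same complex. In complex I this held for 3 of 7 genes. In replicate 2 alone, mt-Co2 (1375 TPM) and mt-Co3 (1257 TPM) were below Cox6b1 (1399.7 TPM), and mt-Co3 also below Ndufa4 (1264 TPM).

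These mitochondrial levels depended on how reads were divided between mitochondrial DNA and its copies in the nucleus. A stretch of chromosome 1 (mm10, chr1:24611535-24616197) holds 7 annotated pseudogenes that repeat parts of mt-Co1, mt-Co2, mt-Atp6, mt-Co3, mt-Nd3, mt-Nd4l and mt-Nd4. They held 241080 and 296558 expected counts, which is 32.0% and 34.7% of the counts on these pseudogenes and all 13 mitochondrial genes together. The copy of mt-Nd4l, Gm10222, is identical to the gene over all of its 294 bases. The gene kept 12.4% and 9.18% of the counts of the pair. Its sequence is shown because no read lying inside it can be placed on one or the other; the capitals mark the 3 bases that the annotated copy lacks (chrM:9877-10173, plus strand, GRCm38).
mt-Nd4l: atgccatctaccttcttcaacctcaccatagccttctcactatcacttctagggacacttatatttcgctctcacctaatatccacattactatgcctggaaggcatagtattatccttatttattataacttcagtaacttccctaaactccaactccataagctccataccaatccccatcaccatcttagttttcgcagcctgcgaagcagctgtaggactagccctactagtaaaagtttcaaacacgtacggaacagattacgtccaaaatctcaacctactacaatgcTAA

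The copy of mt-Nd3, Gm28438, differs from it at 1 of 345 bases. The substitution is T3C, counted from 1 at the first base of mt-Nd3, with the gene's base first. It lies in the first codon, so a read from the remaining bases fits both. The first 23 bases of each are shown, with the differing base in capitals.
mt-Nd3: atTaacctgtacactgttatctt
Gm28438: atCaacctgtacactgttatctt

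The share of counts left on the gene differed between genes with such copies. It was 16.9% and 11.7% for mt-Co3, whose copy Gm28437 matched it over 783 of 783 bases, 22.1% and 25.2% for mt-Nd3, and 30.5% and 29.0% for mt-Co2, whose copy Gm28661 matched over 681 of 681. It was 86.8% and 84.4% for mt-Atp6, whose copy aligns over 678 of 681 bases. For mt-Co1 it was 77.5% and 74.7%, and the chromosome 1 copy aligns over 483 of 1545 bases. mt-Nd4 kept 99.99% in both libraries. Its copy Gm28439 is also identical where the 2 align, but that is 876 of 1378 bases, against 294 of 297 for mt-Nd4l. Among genes with identical copies, mt-Nd4l and mt-Nd4 were at opposite ends, with unlike parts of the gene covered by the copy. The pseudogene Gm28437 was listed at 9202 and 9527 TPM, above mt-Co3 itself in each library.

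With the copies' reads added to each gene, the mitochondrial profile changed shape. mt-Co3 reached 10915 ± 205 TPM, near its neighbour mt-Atp6 at 10092 ± 162 TPM. mt-Co2 reached 4787 ± 54.5 TPM, mt-Co1 3769 ± 364, mt-Nd3 1925 ± 127 and mt-Nd4l 858 ± 76.9 TPM. The span from lowest to highest gene was 92.5-fold without the copies, from mt-Nd4l to mt-Atp6. With them the lowest gene was mt-Nd5 and the highest mt-Co3. mt-Nd4l and mt-Nd4 share 1 messenger RNA, with reading frames that overlap by 7 bases. Their ratio, mt-Nd4 over mt-Nd4l, was 17.9 ± 4.75 as listed and 1.87 ± 0.11 with the copies. Other pairs moved away from 1: mt-Atp6 over mt-Atp8 was 1.31 ± 0.04 as listed and 1.53 ± 0.01 with the copies, and mt-Co3 over mt-Nd3 3.55 ± 1.52 and 5.69 ± 0.48. The gap between libraries narrowed for mt-Co3, which had a log2 ratio of replicate 1 over replicate 2 of 0.57 as listed and 0.04 with its copy. For complex IV, the mitochondrial median moved from 1623 ± 351 to 4787 ± 54.5 TPM, which is 5.44 ± 0.47-fold above the nuclear median. For complex I it moved from 508 to 988 ± 9.02 TPM, which is 3.32 ± 0.14-fold above the nuclear median, and 5 of the 7 mitochondrial genes then exceeded every nuclear subunit. The share of mitochondrial genes in the members' TPM was 55.6% with the copies of all members added, and 57.8% when the TPM of the chromosome 1 pseudogenes was added as listed. The tables' posterior mean TPM, another estimate from the same reads, put mt-Co3 at 3736 TPM on average. Whether any of these reads came from the chromosome 1 stretch was not tested.

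**Figure D2:**
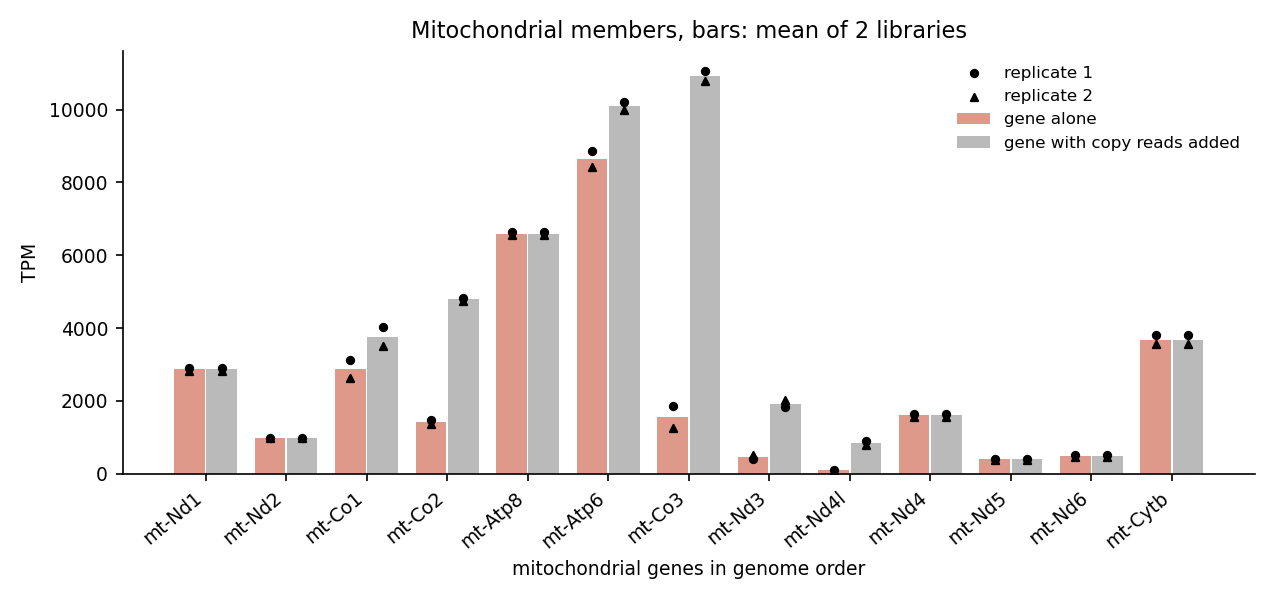
Level (TPM) of the 13 mitochondrial genes in genome order, as listed (orange bars) and with the reads of pseudogene copies added (grey bars); bars are means of 2 libraries, circles replicate 1 and triangles replicate 2. mt-Co3 goes from 1564 to 10915 TPM, while genes with no annotated copy, such as mt-Cytb, have equal bars.

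Nuclear members had the same feature at fewer genes. A copy elsewhere in the genome, annotated as a pseudogene and at least 97% identical over at least 100 bases, was found for 18 of the 93. All such copies together took 2.41% and 2.64% of the nuclear members' counts, and 5 genes kept less than 90%. Ndufb4 kept 21.9% and 21.7%, with the rest on the intronless copy Ndufb4c (318 and 367 TPM). With it, Ndufb4 stood at 214 and 252 TPM and was no longer the lowest accessory subunit, a place that passed to Ndufa11 (91.2 and 101 TPM). Atp5l, of the membrane part of ATP synthase, kept 24.99% and 20.5%, with most others on Gm10221, which is identical over 309 of 309 bases. Its level was 208 and 189 TPM as listed, and 833 and 921 TPM with the copies. Atp5g2 kept 47.6% and 47.9%, and its share of the c subunit was 12.3 ± 1.55% with the copies, against 6.84% without. Atp5g1 kept 82.5% and 80.0%.

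Cox7c, a small complex IV subunit, kept 78.9% and 77.0% of counts. Its copy Gm12338 repeats the coding region of Cox7c (gene at chr13:86044816-86046904, minus strand, GRCm38) without a difference over 192 bases. It is shown as the case in which the shared stretch is the whole reading frame, with the start and stop codons in capitals.
Cox7c: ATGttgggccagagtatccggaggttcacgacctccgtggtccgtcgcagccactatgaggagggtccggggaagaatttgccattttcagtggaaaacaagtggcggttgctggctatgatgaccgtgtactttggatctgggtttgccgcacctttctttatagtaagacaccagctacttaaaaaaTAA
Gm12338 was listed at 689 and 835 TPM against 629 and 681 TPM for Cox7c, although it held fewer counts (1422 and 2056 against 5484 and 7158). The copy has 192 bases and the gene 492, so the same read weighs more in its TPM.

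**Figure D3:**
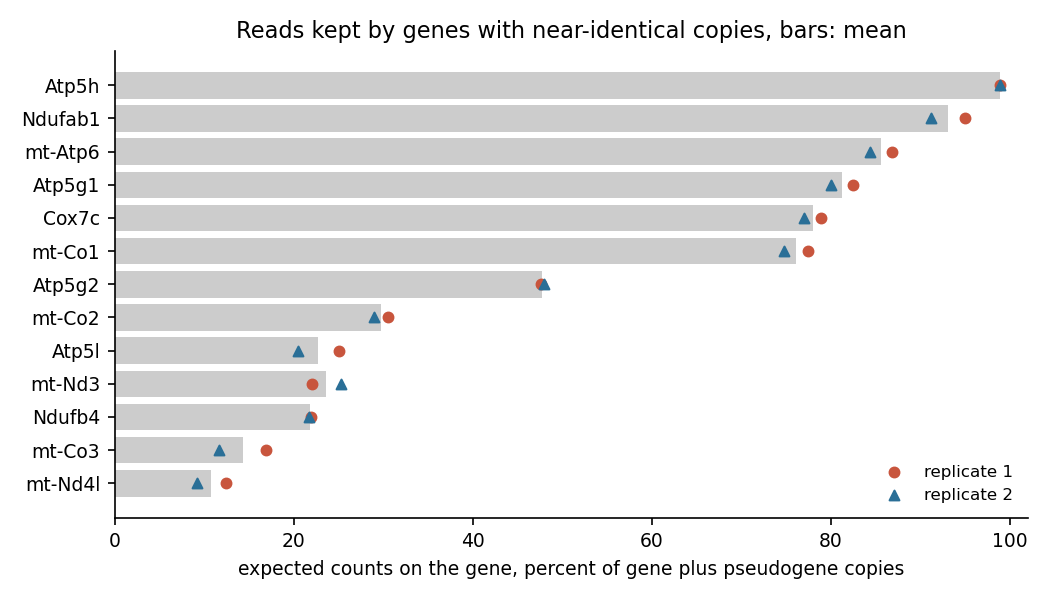
Expected counts assigned to the gene, as percent of the gene and its pseudogene copies together, for the 13 members where it was under 99% in either library; bars are means, orange circles replicate 1, blue triangles replicate 2. Values run from about 10% for mt-Nd4l to about 99% for Atp5h, with both libraries close to each other.

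Forms restricted to other tissues were present only at low levels, with a median of 4.51 ± 0.21 TPM over the 8 of them. The comparison is between paralogues that can take the same place in the enzyme. Cox4i1, the general form of the largest nuclear subunit of complex IV, was at 1013 and 1094 TPM and its lung and hypoxia form Cox4i2 at 6.24 and 3.91 TPM, a ratio of 162 and 279.7. Ndufa4 exceeded Ndufa4l2, a form induced in hypoxia and found in mural cells of vessels, by 58.8 and 92.9-fold (18.1 and 13.6 TPM for Ndufa4l2). Both Cox4i2 and Ndufa4l2 were higher in replicate 1.

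The heart and muscle forms were as low. Cox6a2 was at 3.63 and 6.96 TPM, beside Cox6a1 at 1005 and 1113 TPM, a ratio of 277 and 160.0. Cox8b was at 1.20 and 3.88 TPM, from 7 and 27 expected counts, beside Cox8a at 1004 and 1038 TPM, a ratio of 837 and 267. Cox7a1 was at 5.10 and 5.41 TPM, beside Cox7a2 at 472 and 568 TPM, a ratio of 92.6 and 105. Cox6a2 and Cox8b were higher in replicate 2, and Cox7a1 differed little between libraries. Of the testis forms, Cox6b2 was highest, at 31.8 and 21.6 TPM, which made Cox6b1 37.3 and 64.8-fold higher. Cox7b exceeded Cox7b2 by 579 and 613-fold. Cox8a was at least 2799-fold higher than Cox8c in replicate 1 and at least 3454-fold higher in replicate 2, against a floor of 3 counts in each library.

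Markers of other tissues differed between the libraries in the same directions as some of these forms. All 10 skeletal muscle markers were detected, with sums of 216 and 369 TPM, higher in replicate 2 as Cox6a2 and Cox8b were, although Actn3 was lower there (9.46 and 2.42 TPM). All 8 mural cell markers were detected, with sums of 273 and 74.0 TPM, higher in replicate 1 as Cox4i2 and Ndufa4l2 were, and most of that difference was Acta2 (175 and 17.9 TPM). Of 6 heart markers 4 were detected, with sums of 14.3 and 8.32 TPM. Their part in the result was not tested. None of the 6 germ cell markers was detected, with sums of 1.58 and 1.72 TPM and both Tnp1 and Acrv1 at 0, while Cox6b2 was above 20 TPM in both libraries.

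**Figure D4:**
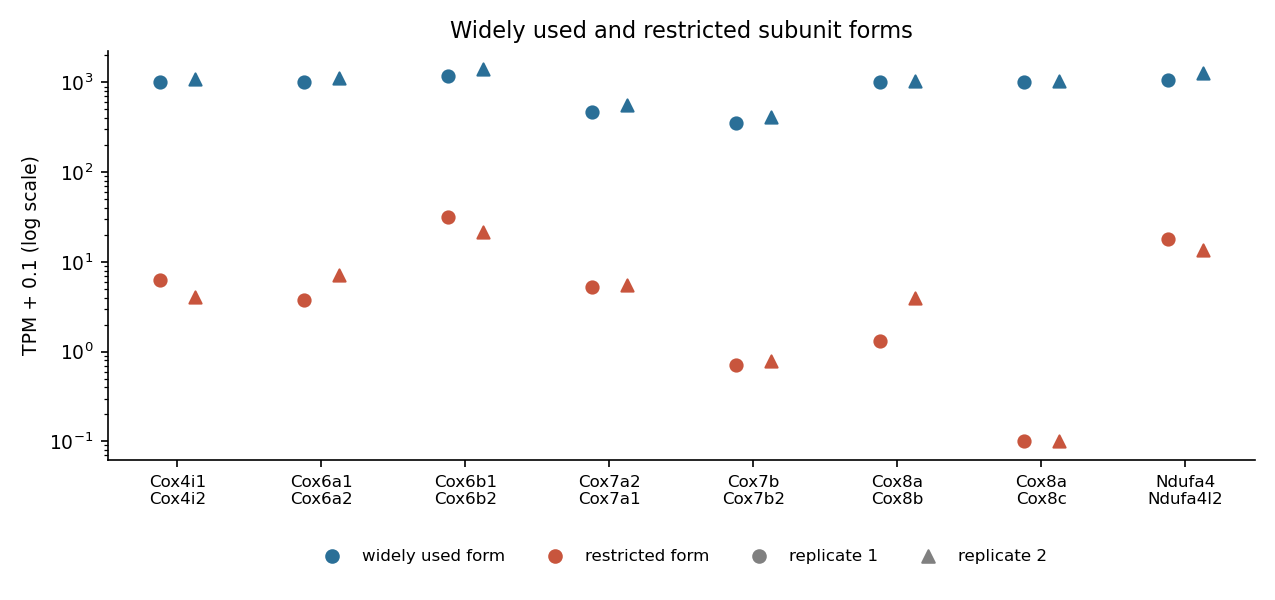
Level (TPM + 0.1, log scale) of the widely used form (blue) and the restricted form (orange) of 8 subunit pairs in replicate 1 (circles) and replicate 2 (triangles). The lowest blue point is Cox7b at 353 TPM and the highest orange point Cox6b2 at 31.8 TPM.

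Between the libraries, genes of the 2 genomes differed in opposite directions by small amounts. The log2 ratio of replicate 1 over replicate 2, taken on TPM + 1, had a median of -0.11 over the 75 nuclear subunits, 60 of which were higher in replicate 2. Over the 13 mitochondrial genes it was 0.10, and 12 of 13 were higher in replicate 1, with a median of 0.05 once copies were added. All protein-coding genes at 1 TPM or more in either library had a median of 0.03. Of these 14591 genes, 8078 were higher in replicate 1 and 6484 in replicate 2. Genes with a mean of 5 TPM or more and 50 or more expected counts over both libraries were tested, and were called apart past 2-fold. None of the 103 members tested was apart, where 3.37% of protein-coding genes were apart towards replicate 1 and 0.106% towards replicate 2. With 1 library a side these ratios have no replicate check.

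Among members with a mean of at least 5 TPM, those farthest towards replicate 1 were mt-Nd4l at a log2 ratio of 0.61, mt-Co3 at 0.57, Cox4i2 at 0.56, Cox6b2 at 0.54 and Ndufa4l2 at 0.38. Those farthest towards replicate 2 were Cox6a2 at -0.78, mt-Nd3 at -0.33, the assembly factor Ndufaf5 at -0.29, the small ATP synthase subunit Atp5mpl at -0.29 and Ndufa1 at -0.27. Cox8b, with a mean under 5 TPM, was farther still at -1.15. The first 10 genes were either restricted forms, mitochondrial genes with a nuclear copy, or, in 3 cases, an assembly factor and 2 small nuclear subunits.

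The difference was larger in short subunit genes. The 40 subunits under 700 bases had a median log2 ratio of -0.16, with 38 of 40 higher in replicate 2. The 27 of 700 to 1500 bases had -0.06, and the 8 of 1500 bases or more 0.02, with 6 of 8 higher in replicate 1. Among all protein-coding genes tested, the same length classes had medians of -0.004, 0.02 and 0.007. Of those under 700 bases, 175 of 345 were higher in replicate 2. Of those of 1500 bases or more, 4578 of 8916 were higher in replicate 1. Across the 75 subunits, Spearman's rho of ratio with length was 0.57, and across 11321 protein-coding genes -0.08. Genes are not independent replicates, and all these values come from the same pair of libraries. Neuron markers had a median log2 ratio of -0.27 and progenitor markers -0.13. The median level of the progenitor markers was higher in replicate 1 (273 and 254 TPM), and that of the neuron markers lower (785 and 852 TPM). Replicate 1 also held the thymus and epithelial markers. Of the 4 progenitor markers, Vim went the other way (0.15) and Slc1a3 was nearly equal (-0.03). The part of these cell types in the result was not tested, nor was that of length.

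**Figure D5:**
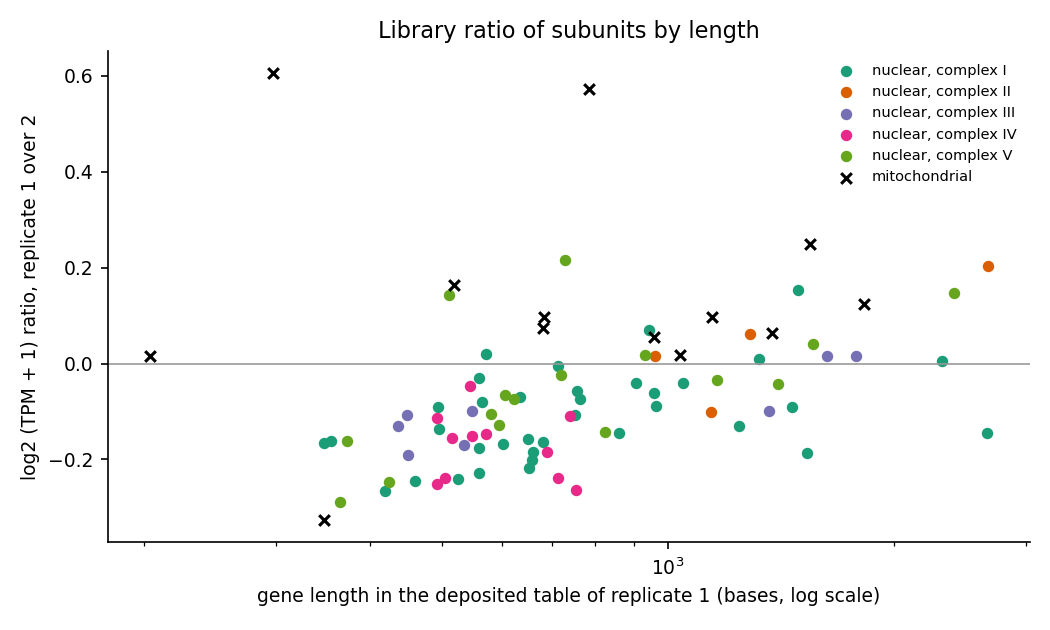
Log2 ratio of TPM + 1, replicate 1 over replicate 2, against gene length (bases, log scale) for 75 nuclear subunits, coloured by complex, and 13 mitochondrial genes (crosses). Most nuclear subunits under 700 bases lie below 0, and most mitochondrial genes above it.

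Level and length were related too: rho was -0.51 between log2 TPM and length over the 75 subunits, -0.37 over all protein-coding genes tested, and -0.44 for the subunits when counts were divided by full length. The 8 subunit genes of 1500 bases or more were nonetheless mixed in level. Atp5b (1962 TPM on average), Atp5a1 (766 TPM) and Uqcrc1 (421 TPM) were high, and Sdha (203 TPM), Uqcrc2 (196 TPM), Ndufs1 (131 TPM), Ndufs4 (123 TPM) and Ndufa11 (96.0 TPM) lower.

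The transcript tables divided each gene among its annotated forms. Of 105 members with reads, 42 had 1 transcript and 63 had several. Among the 63, a median of 94.4 ± 0.38% of TPM lay in protein-coding transcripts, and the leading transcript was the same in both libraries for 62. In 9 members less than 50% was protein-coding. Ndufa5 had 86.95 ± 0.46% on a processed transcript of 453 bases and 12.8 ± 0.40% on coding forms. Atp5j had 64.8 ± 0.32% on a form with a retained intron, and Ndufb4 64.0 ± 1.76%. Atp5f1 had 64.2 ± 1.46% on a form annotated for nonsense-mediated decay, and Cox5b 61.2 ± 0.65% on a processed transcript. The other 4 were Cox7b, Ndufa10, Ndufab1 and Ndufaf8. Some genes named above as highest by gene level also had lower coding shares than those ranked next. Ndufc1 had 50.95 ± 1.32% on coding forms, against 100% for Ndufa1, and Uqcrq 72.3 ± 0.82%, against 97.8 ± 0.19% for Uqcr11. Ndufv3 has a short and a long coding form: the short one, of 312 coding bases, held 92.95 ± 0.98% and the long one, of 1404 coding bases, 6.22 ± 1.03%. Transcripts of 1 gene share most of their sequence, and these shares are the model's division of the reads.

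Genes around the chain were mostly far lower than its subunits, and none of those tested was apart between libraries. Over all protein-coding genes tested, 3.37% were apart towards replicate 1 and 0.106% towards replicate 2. Of 92 genes around the chain found, 90 were detected, beside 63.4% of all protein-coding genes. Both counts include the 2 mitochondrial ribosomal RNA genes, which are not protein-coding. Cyc1, the cytochrome c1 subunit of complex III that lies outside the symbol rule, was at 396 and 398 TPM, within the range of that complex. The electron transfer flavoprotein gene Etfb was at 149 and 107 TPM, and Cyct, the testis cytochrome c, at 0.08 and 0.27 TPM. Assembly factors of complex I outside the Ndufaf symbols ran from Nubpl (6.58 and 6.01 TPM), which inserts iron-sulfur clusters, to Tmem126b (43.7 and 46.9 TPM) and Ecsit (50.2 and 49.6 TPM). Those of complex II ran from Sdhaf3 (5.98 and 6.06 TPM) to Sdhaf2 (28.2 and 27.0 TPM) and Sdhaf4 (65.1 and 69.8 TPM). For complex III, Uqcc2 reached 287 and 319.7 TPM and Uqcc1 59.8 and 56.7 TPM, with Lyrm7 lowest at 7.88 and 8.77 TPM. For complex IV, Coa3 was at 175 and 194 TPM and Cox14 at 146 and 149 TPM, while Pet117 was at 0 and 0.67 TPM. Near complex V, Atpif1, the peptide that inhibits reverse action of the synthase, was an exception at 1124 and 1241 TPM, against Tmem70 at 55.1 and 55.8 TPM and Atpaf1 at 40.4 and 32.5 TPM.

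The machinery that expresses mitochondrial DNA had a median of 25.8 ± 0.96 TPM over 17 genes. Slirp, which stabilises mitochondrial messenger RNA, was highest at 202 and 234 TPM, followed by Hsd17b10, part of mitochondrial RNase P, at 113 and 100.4 TPM, with Polg2 lowest at 9.44 and 7.44 TPM. The 10 nuclear regulators had a median of 14.2 ± 0.98 TPM. Gabpb1 (29.4 and 30.3 TPM) and Nrf1 (28.9 and 24.2 TPM) were the highest of them and Esrrb (3.04 and 3.86 TPM) the lowest. The mitochondrial ribosomal RNA mt-Rnr2 was at 3861 and 3635 TPM and mt-Rnr1 at 1229 and 1271 TPM.

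Motifs of factors known to act on mitochondrial genes were counted in the promoters of nuclear members, beside promoters at large. RefSeq windows from 250 bases before to 50 bases after the gene start (GRCm38.p6) were at hand for 74 of the 93 nuclear members, with 79 windows in all. On either strand, CGCANGCG, the core that the factor NRF1 recognises, was in 39.2% of members' windows, against 8.21% of all 32851 windows and 11.1% of those of protein-coding genes. CCGGAAG, recognised by ETS factors such as GABPA, was in 22.8%, against 8.86% and 11.6%. AAGATGG, the core for YY1, was in 13.9%, against 6.34% and 6.24%, and CAAGGTCA, for oestrogen-related receptors, in 5.06%, against 1.56% and 1.34%. GGGCGG, for SP1, was in 43.0%, above the 35.7% of all windows and below the 46.2% of protein-coding genes. CCAAT was in 43.0%, against 37.4% and 38.2%, and TATAAA in 10.1%, against 13.6% and 12.6%. By gene, at least 1 of the NRF1, ETS and YY1 motifs was in 47 of 74 members (63.5%) and in 28.0% of protein-coding genes. All 3 were in 1 member, Atp5j, and in 0.25% of protein-coding genes. The 4 restricted forms with a window (Cox6b2, Cox7a1, Cox7b2 and Cox8b) had none of the 3, which also holds for all but 28.0% of protein-coding genes. Read on the gene strand only, the ETS motif was in 9.46% of members and 7.11% of protein-coding genes, and the motif of oestrogen-related receptors in 0% and 0.90%. Among subunits in general use, the median level was 409.7 TPM for 25 with the NRF1 motif and 419 TPM for 37 without. It was 422 TPM for 16 with the ETS motif and 409 TPM for 46 without, and 559 TPM for 10 with the YY1 motif and 409 TPM for 52 without. A match is a description of letters and not a binding site. The NRF1 and ETS motifs themselves contain CG pairs, of which the median window of a member had 19 and that of a protein-coding gene 13, and the part of this difference was not tested.

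The stretches below come from an accessory subunit and an assembly factor of complex I and from subunits of complexes III and V. They were taken where the motif lies before both the RefSeq and the GENCODE gene start and in no annotated gene, and are read along the gene. Capitals mark the NRF1 and ETS motifs on either strand. Ndufs5 is at chr4:123718261-123718298 (minus strand), Ndufaf4 at chr4:24897956-24897993 (plus), Uqcr11 at chr10:80406865-80406902 (minus) and Atp5e, the epsilon subunit of ATP synthase, at chr2:174464181-174464218 (minus).
Ndufs5: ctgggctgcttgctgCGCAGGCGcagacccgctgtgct
Ndufaf4: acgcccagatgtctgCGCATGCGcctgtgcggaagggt
Uqcr11: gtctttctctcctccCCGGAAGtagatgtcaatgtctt
Atp5e: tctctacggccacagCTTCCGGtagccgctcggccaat
Ndufs5 and Ndufaf4 hold the NRF1 motif. Uqcr11 holds the ETS motif as spelled above, and Atp5e holds it on the other strand, so that it reads CTTCCGG along the gene.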

How the data were processed

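Total RNA-seq was measured in 2 libraries of 1 group. Per the deposited notes, the authors made gene and transcript tables from transcriptome alignments on mm10 with GENCODE M4. No source used here gives the aligner, the quantifier, their versions or the strand setting. The deposited expected count shares reads that fit several transcripts by a model. The deposited TPM is scaled over all entries, spike-ins included (5.00% and 5.42% of TPM), and a posterior mean TPM was deposited as well. No further normalization was applied. Symbols, types and positions came from GENCODE M21 (GRCm38), matched by identifier. Members and lists were chosen with earlier results of these data known. A member was detected at 1 TPM in both libraries. Copies were annotated pseudogenes at another locus found with BLAST 2.17.0 (at least 97% identity over at least 100 bases). The level with copies is TPM multiplied by the ratio of summed to own expected counts, an approach chosen after the values were seen. Named members are all 13 mitochondrial genes, the 3 highest and the lowest of each nuclear group, all under 1 TPM, all pairs, the 5 largest library ratios each way, and the 2 highest and lowest of each list; others were named after their values were seen. Size factors for alternatives came from edgeR 4.0.16 and DESeq2 1.42.0 on rounded expected counts in R 4.3.3. The rest ran in Python 3.11.15 with pandas 2.3.3 and scipy 1.17.1, and the rule for genes apart was run on simulated data. The simulated counts held set folds and counting error but no variation between pools, so they could not check the rule against such variation. Gene counts were 34678043 and 41355355, and floors of 3 counts cover counting error only. In the members, 68 of 106 had whole expected counts in both libraries.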

Additional observations from a re-analysis of the deposited data

How the results depend on the processing

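No paired analysis was possible because both libraries belong to 1 group. The number of members detected was the same within 1.5-fold under each threshold, unit and single library tried. The mitochondrial share of member TPM moved from 45.7% to 57.8% with the chromosome 1 pseudogenes added and to 55.6% with the copies of all members added. The median levels of complexes I, II and III were 315, 261 and 491 TPM when rescaled over annotated genes. The mean in place of the median gave 328 TPM for complex I and 279 TPM for complex II, and the posterior mean 241 TPM for complex II. With full in place of effective length, levels in reads scaled by length and library total were 161, 140.5, 250.5, 447 and 330.2 for complexes I to V, in the same order. The median library ratio of all protein-coding genes changed sign from 0.03 to -0.0061 with DESeq2 size factors, while those of nuclear subunits and mitochondrial genes kept theirs under all alternatives run. In CPM, which ignores length, Cox7a2 over Cox7a1 was 244, Cox7b over Cox7b2 817, Ndufa4 over Ndufa4l2 34.6, Atp5g3 over Atp5g1 1.71 and Atp5g1 over Atp5g2 4.69. Cox7b over Cox7b2 was 522 by posterior mean. The protein-coding share of transcripts was 96.3% in expected counts. On the gene strand only, the motifs were in 9.46% of members for ETS (7.11% of protein-coding genes), against 24.3% on both strands (12.9%). They were in 0% (0.90%) for oestrogen-related receptors, 28.4% (33.6%) for SP1, 24.3% (24.5%) for CCAAT and 4.05% (9.82%) for TATA. The share for oestrogen-related receptors thus went from above to below that of protein-coding genes. The copies' reads moved 7 single members past 1.5-fold. Low counts limit Cox8b, Cox7b2 and Cox8c.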

Other observations

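Usmg5, a small subunit of the ATP synthase, has a symbol outside the rule and was looked up after the members' values were seen. It was at 1296 and 1666 TPM, above every nuclear ATP synthase subunit among the members other than Atp5b.

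Nuclear members often stood head to head with another gene. In GENCODE M21, 28 of 93 (30.1%) had a protein-coding gene starting on the opposite strand within 1000 bases upstream, or overlapping by up to 200 bases, against 7.90% of 21461 nuclear protein-coding genes and 11.1% of the detected ones. Examples are Sdhd with Timm8b, which encodes a mitochondrial import chaperone, at 98 bases, Ndufs6 with the mitochondrial ribosomal protein gene Mrpl36, overlapping by 29 bases, and Ndufa7 with Rps28 at 10 bases. No member faced another member. At 32 nuclear members a gene on the opposite strand overlapped, and without knowledge of strand in counting their reads cannot be told apart there.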
